A study of Mus musculus with 6 samples.

Results

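The genes described here encode 8 Toll-like receptors (Tlr1, Tlr2, Tlr3, Tlr4, Tlr6, Tlr7, Tlr9 and Tlr13) and the LPS co-receptors CD14 and MD-2 (Cd14 and Ly96). They were chosen by name, and all 10 were found among the 24411 gene symbols of the count tables. PM, microglia shaken off mixed glia grown from the pooled brains of 12 ICR mice at postnatal day 3, had received either GSK-J4 (10 μM) or LPS (10 ng/ml) together with GSK-J4 (10 μM), and RNA was taken at 4-h. Each group held 3 libraries. Both groups carried GSK-J4, an inhibitor of the H3K27 demethylases, so each comparison below sets PM given LPS and GSK-J4 against PM given GSK-J4 alone. Untreated and LPS-only PM were not analysed here, and an effect of GSK-J4 itself was not measured.

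Toll-like receptors are membrane proteins of innate immune cells that recognize microbial molecules. TLR4 is the signalling receptor for LPS. CD14 hands LPS to the complex of TLR4 and its partner MD-2, and CD14 also carries this complex into endosomes. TLR2 pairs with TLR1 or TLR6 to bind bacterial lipoproteins. TLR3, TLR7, TLR9 and TLR13 sit in endosomes, where they sense nucleic acids. In the brain, microglia are the main cells to carry most of these receptors, and they are known to respond to LPS through TLR4.

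Cd14 and Tlr2 rose by a little under 1 on the log2 scale when LPS was added, while the transcript of the LPS receptor itself, Tlr4, averaged 56.9 ± 10.6 CPM without LPS and 37.8 ± 10.5 CPM with it (SD, n = 3). Levels are given as TMM-normalized CPM, the counts scaled to library size and then between libraries by edgeR's TMM factors. None of the 10 genes passed both thresholds of the study, a Benjamini-Hochberg adjusted p no higher than 0.01 with a log2 fold change of 1.5 or more up or down. Over all 10133 genes tested by edgeR's quasi-likelihood test, 2.95% passed both thresholds upwards and 0.809% downwards. At the adjusted p alone, 2 of the 10 genes were higher and 0 were lower, where 8.42% and 5.46% of all genes tested were. At an unadjusted p below 0.05, 2 were higher and 2, Tlr4 and Tlr6, were lower, where 19.3% and 15.5% of all genes tested were. DESeq2 also gave 2 higher and 0 lower at the adjusted p, and 0 past both thresholds. The share of all genes called by DESeq2 was not computed, so these counts have no background beside them.

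The depth of the libraries was between 2597505 and 3472716 fragments counted on genes, and 3 counts in a library corresponded to between 0.673 and 1.24 CPM. Of the uniquely mapped fragments, between 59.31% and 62.65% lay outside the exons counted on this strand. Rn45s, the ribosomal precursor, held 25.6% ± 5.88 of the counts without LPS and 47.1% ± 1.15 with LPS (SD, n = 3). In replicates 1, 2 and 3 it held 22.17%, 22.34% and 32.44% in GSK-J4, and 48.06%, 45.83% and 47.45% in LPS + GSK-J4. The 10 genes took 0.177% of the counts on average in both groups. After TMM scaling, their summed level was 1320 to 1549 CPM in GSK-J4 and 2099 to 2236 CPM in LPS + GSK-J4. The TMM factors were 1.31, 1.29 and 1.055 in GSK-J4 and 0.822, 0.832 and 0.821 in LPS + GSK-J4. A smaller factor gives a higher CPM, so the size of the changes in CPM depends on this scaling. Replicate 3 of both groups stood apart, with a chi-square per degree of freedom of at least 5.81 against the other libraries of its group, which differed from each other by 2.12 and 2.32. In replicate 3 of each group, 8 of the 10 genes were lower than the mean of replicates 1 and 2, Cd14 and Tlr9 being higher. All 6 direct response genes listed as a check (Tnf, Cxcl2, Nfkbia, Tnfaip3, Ccl4 and Ifnb1) rose past both thresholds, with log2 fold changes from 3.13 to 9.44. As the animals were pooled, p values measure the spread between these cultures only.

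The promoters of Tlr2 and Tlr13 are shown because one receptor rose and the other did not move beyond its error. Both lie on the RefSeq assembly GRCm38.p6 and are given 5′ to 3′ on the gene's own strand, up to the base before the first annotated base of the gene. The Tlr2 stretch is chr3:83841768-83841858 on the minus strand, and the Tlr13 stretch is chrX:106143025-106143203 on the plus strand. Capitals mark matches to the NF-kB motif in Tlr2 and to the PU.1 motif GAGGAA in Tlr13.
Tlr2: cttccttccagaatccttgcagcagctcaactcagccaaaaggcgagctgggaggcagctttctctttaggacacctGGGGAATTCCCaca
Tlr13: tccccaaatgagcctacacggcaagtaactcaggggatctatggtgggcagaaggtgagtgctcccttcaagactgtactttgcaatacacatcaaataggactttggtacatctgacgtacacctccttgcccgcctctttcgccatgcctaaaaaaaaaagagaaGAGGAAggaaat

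Motifs were searched on both strands in the 250 bases before the RefSeq start of each gene, a window present for 6 of the 10 genes (Tlr1, Tlr2, Tlr3, Tlr6, Tlr9 and Tlr13, with 2 windows each for Tlr1 and Tlr6). The NF-kB motif, the site of the main transcription factor downstream of these receptors, was matched in Tlr2 and Tlr3 and in 7.25% of all 32851 windows of that length. The Tlr2 match is a pair of overlapping matches at chromosome 3, 83841771 to 83841781, written above as 1 run of capitals. AP-1, as TGANTCA, was matched in Tlr9 and in 6.75% of all windows. PU.1, a transcription factor that defines the myeloid lineage, was matched in Tlr1, Tlr9 and Tlr13 and in 23.3% of all windows. These matches describe letters in a window and not bound sites, and Tlr3, which holds an NF-kB match as Tlr2 does, did not pass the test.

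Among the LPS receptor genes, Cd14 (mm10 chromosome 18, 36725067 to 36726798) had counts of 2198, 2359 and 1576 in GSK-J4 replicates 1, 2 and 3, and of 2471, 2510 and 2617 in LPS + GSK-J4. After scaling, these were 519, 530 and 578 CPM without LPS and 964, 958 and 1081 CPM with LPS. The groups did not overlap, and the smallest LPS + GSK-J4 value was well above the largest GSK-J4 value. Cd14 rose from 542 ± 31.5 to 1001 ± 69.1 CPM (SD, n = 3), or by 0.89 on the log2 scale (standard error 0.11, 95% interval 0.66 to 1.11), with an adjusted p of 1.33e-05 by edgeR. This is a 1.85-fold change, with an interval from 1.58 to 2.16. Over the 14 alternatives run for it, the log2 fold change of Cd14 lay between 0.83 and 0.93 and the adjusted p between 6.54e-13 and 0.000293.

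Tlr4, the receptor that passes the LPS signal across the membrane (mm10 chromosome 4, 66827584 to 66930284), had 277, 269 and 123 counts in GSK-J4 and 106, 121 and 63 counts in LPS + GSK-J4. The scaled values were 65.4, 60.4 and 45.1 CPM without LPS and 41.4, 46.2 and 26.0 CPM with LPS. Replicate 3 was the lowest of each group, and the groups overlapped through GSK-J4 replicate 3 and LPS + GSK-J4 replicate 2. The log2 fold change was -0.60 (standard error 0.20, 95% interval -1.02 to -0.17) with an adjusted p of 0.0394 by edgeR, so Tlr4 did not pass the threshold of 0.01. The value was negative under all 14 alternatives run for it, from -0.76 to -0.40 (the latter without LPS + GSK-J4 replicate 3), and the adjusted p ranged from 0.000425 to 0.152. It passed at an adjusted p of 0.0014 without the filter on low counts, 0.000425 with a block for the replicate number and 0.00529 without both libraries of replicate 3. The call for Tlr4 therefore depended on these settings, while its direction did not change in any of the 14.

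Ly96 encodes MD-2, the subunit of the TLR4 complex that binds LPS directly (mm10 chromosome 1, 16688051 to 16709611). It was counted 37, 37 and 13 times in GSK-J4 and 24, 30 and 18 times in LPS + GSK-J4. This corresponded to 7.27 ± 2.18 CPM and 9.42 ± 2.01 CPM (SD, n = 3), and the groups overlapped. Its log2 fold change of 0.34 had a 95% interval from -0.29 to 0.96 (adjusted p = 0.459 by edgeR). The value was 0.15 without GSK-J4 replicate 3 and 0.17 without LPS + GSK-J4 replicate 2. The 95% interval covers both a fall and a rise, so a direction of change of Ly96 was not determined with these libraries.

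**Figure D1:**
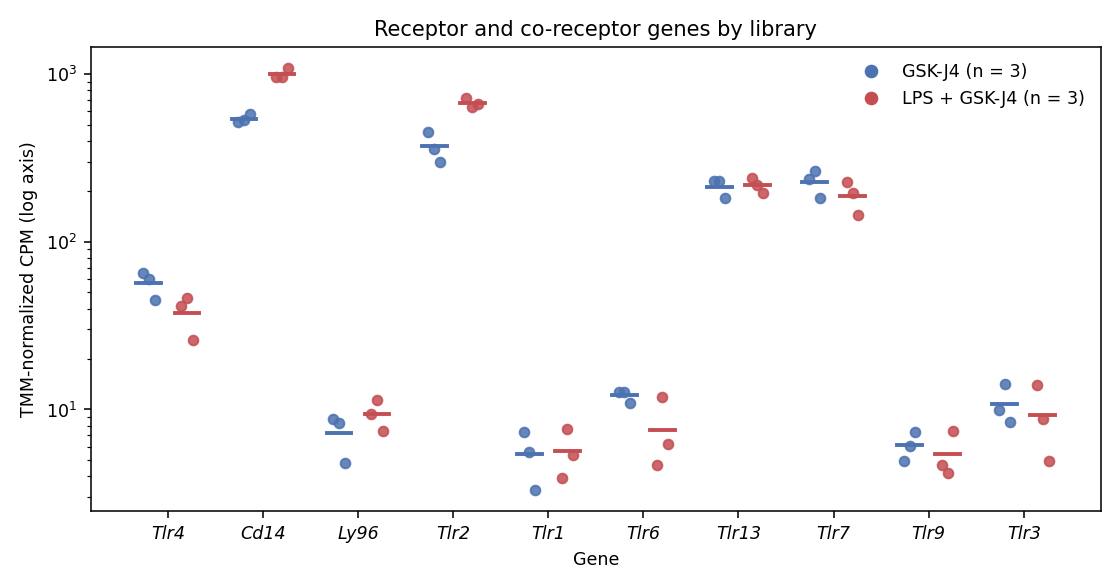
TMM-normalized CPM on a log axis for the 10 receptor and co-receptor genes, with 1 point per library and a bar at the mean of each group (n = 3). The points of Cd14 and Tlr2 are separate between groups, from 519 to 578 against 958 to 1081 CPM for Cd14, and those of the other 8 genes overlap.

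Tlr2 (mm10 chromosome 3, 83836272 to 83841767), whose product is the shared partner of the lipoprotein receptors, had 1927, 1604 and 811 counts in GSK-J4 and 1857, 1671 and 1608 counts in LPS + GSK-J4. In CPM, the GSK-J4 libraries were at 455, 360 and 297 and the LPS + GSK-J4 libraries at 725, 638 and 664. The GSK-J4 libraries were more spread than those with LPS, and the groups did not overlap. The rise from 371 ± 79.2 to 675 ± 44.7 CPM (SD, n = 3) came to 0.86 on the log2 scale (standard error 0.14, 95% interval 0.57 to 1.16), at an adjusted p of 0.000238 by edgeR. It stayed past the adjusted p in all 14 alternatives run for it, with log2 fold changes from 0.73 to 1.03 and adjusted p from 6.29e-11 to 0.00222. Only Cd14 and Tlr2 of the 10 genes had groups that did not overlap, both of them higher with LPS. Over all genes tested, groups did not overlap in 19.8% upwards and 18.4% downwards, so a count of 2 in 10 higher is near the background.

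The transcripts of the partners of TLR2 were far scarcer, and neither passed the test. Tlr1 (chromosome 5, 64924679 to 64933563) had 31, 25 and 9 counts in GSK-J4 and 10, 20 and 13 counts in LPS + GSK-J4, and its log2 fold change was 0.01 (95% interval -0.76 to 0.79, adjusted p = 0.984 by edgeR). Its sign was not stable, since 5 of 13 alternatives gave a negative value. Tlr6 (chromosome 5, 64952031 to 64960097) had 54, 57 and 30 counts in GSK-J4 and 12, 31 and 15 counts in LPS + GSK-J4. The LPS + GSK-J4 libraries of Tlr6 were at 4.68, 11.8 and 6.19 CPM against 12.7, 12.8 and 11 CPM, and replicate 2 alone reached the GSK-J4 range. Its log2 fold change of -0.69 (standard error 0.30, 95% interval -1.33 to -0.04) had an adjusted p of 0.118 by edgeR. It moved with single libraries, to -1.17 (standard error 0.31, adjusted p = 0.0208) without LPS + GSK-J4 replicate 2 and to -0.43 (adjusted p = 0.348) without LPS + GSK-J4 replicate 1. Tlr1 and Tlr6 are paralogs close to each other on the chromosome, and 8.75% of the 101-base windows of the longest Tlr1 transcript and 7.16% of those of Tlr6 were identical between them. Fragments lying wholly in such windows map to both genes and are not counted, so both are uncertain, while no other Tlr gene shared such a window.

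Of the receptors in endosomes, Tlr7 and Tlr13 were abundant and Tlr9 and Tlr3 were near the lower end. Tlr13, which recognizes bacterial ribosomal RNA in mice (chromosome X, 106143204 to 106160493), had 972, 1021 and 498 counts in GSK-J4 and 617, 575 and 476 in LPS + GSK-J4. In CPM these libraries were at 229, 229 and 183 against 241, 219 and 197. The groups covered nearly the same range, with a log2 fold change of 0.03 and a 95% interval from -0.24 to 0.30 (adjusted p = 0.89 by edgeR). On the TMM scale this interval runs from 0.848-fold to 1.23-fold. Its sign turned negative in 4 of 14 alternatives.

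Tlr7, a receptor for single-stranded RNA (chromosome X, 167304929 to 167330558), had 1008, 1176 and 498 counts in GSK-J4 and 583, 509 and 351 counts in LPS + GSK-J4. The scaled values were 238, 264 and 183 CPM against 228, 194 and 145 CPM. The groups overlapped, replicate 3 was again the lowest of each, and the log2 fold change was -0.27 (95% interval -0.62 to 0.07, adjusted p = 0.252 by edgeR). It was -0.12 without LPS + GSK-J4 replicate 3, -0.16 without GSK-J4 replicate 2 and -0.43 without LPS + GSK-J4 replicate 1. Tlr3, the receptor for double-stranded RNA (chromosome 8, 45395665 to 45411080), had 42, 63 and 23 counts in GSK-J4 and 36, 23 and 12 counts in LPS + GSK-J4. Its log2 fold change was -0.24 (95% interval -0.93 to 0.45, adjusted p = 0.648 by edgeR). Tlr9, the receptor for unmethylated CpG DNA (chromosome 9, 106222598 to 106226883), had 21, 27 and 20 counts in GSK-J4 and 12, 11 and 18 counts in LPS + GSK-J4, and a log2 fold change of -0.15 (95% interval -0.85 to 0.55, adjusted p = 0.789 by edgeR). Neither Tlr3 nor Tlr9 could be measured with precision in these libraries.

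**Figure D2:**
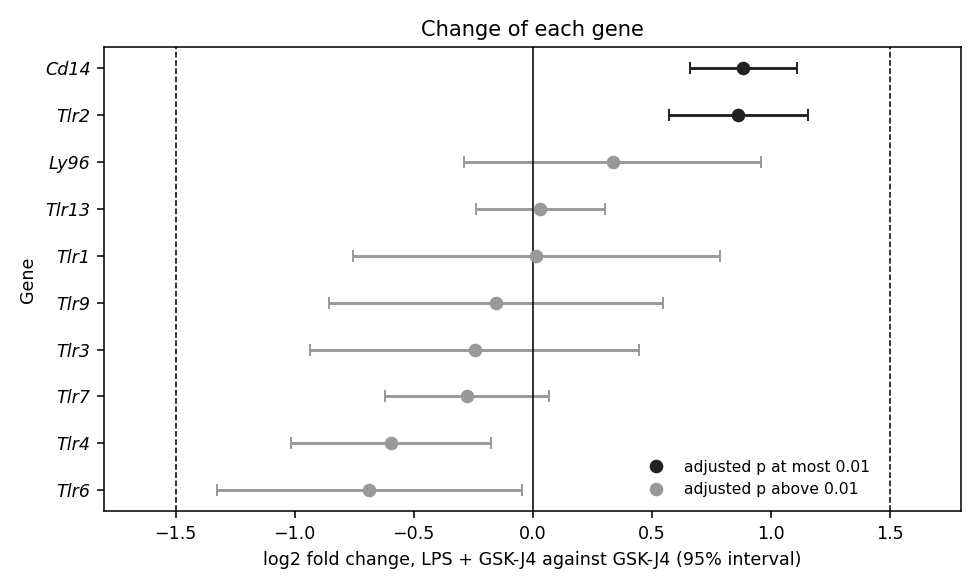
Log2 fold change of LPS + GSK-J4 against GSK-J4 for each gene with its 95% interval, in order of size, with dashed lines at the threshold of 1.5 in either direction. Cd14 (0.89) and Tlr2 (0.86) passed the adjusted p, and the interval of every gene lies inside the dashed lines.

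With all 6 libraries in edgeR's fit, the 95% intervals of the 10 log2 fold changes lay inside the threshold of 1.5 in either direction. For Tlr6 this does not extend to every alternative, given its value of -1.17 without LPS + GSK-J4 replicate 2 and its standard error of 0.40 with DESeq2. The median log2 fold change of the 10 genes was -0.07, against -0.00064 over all genes tested. The antisense column held at most 1.82% of the fragments of any of the 10 genes, and was not used.

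Levels of different genes were compared per kb of the longest annotated transcript. In GSK-J4, Cd14 was the highest at 330 CPM per kb (316 to 352 over the libraries), followed by Tlr2 at 123 (98.7 to 151). Tlr7 at 58.5 and Tlr13 at 52.6 CPM per kb overlapped each other and were apart from Tlr2 above and Tlr4 below. Tlr4 was at 14.0 CPM per kb (11.1 to 16.0) and its partner Ly96 at 10.9 (7.16 to 13.1), and these also overlapped. The lowest were Tlr6 at 3.31, Tlr3 at 2.46, Tlr1 at 1.79 and Tlr9 at 1.76 CPM per kb. Within this lowest group each gene overlapped its neighbour in the order.

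With LPS the tiers were the same, and genes changed places only inside a tier. Cd14 stood at 610 CPM per kb (584 to 659) and Tlr2 at 224 (212 to 241). Tlr13 (53.9) was then above Tlr7 (48.5), and Ly96 (14.1) above Tlr4 (9.28), but the libraries of each pair overlapped. Tlr3 at 2.10, Tlr6 at 2.06, Tlr1 at 1.86 and Tlr9 at 1.56 CPM per kb remained the lowest. Per kb of merged exons in place of the longest transcript, Tlr4 was at 10.2 and Ly96 at 7.12 CPM per kb in GSK-J4, with the same tiers.

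**Figure D3:**
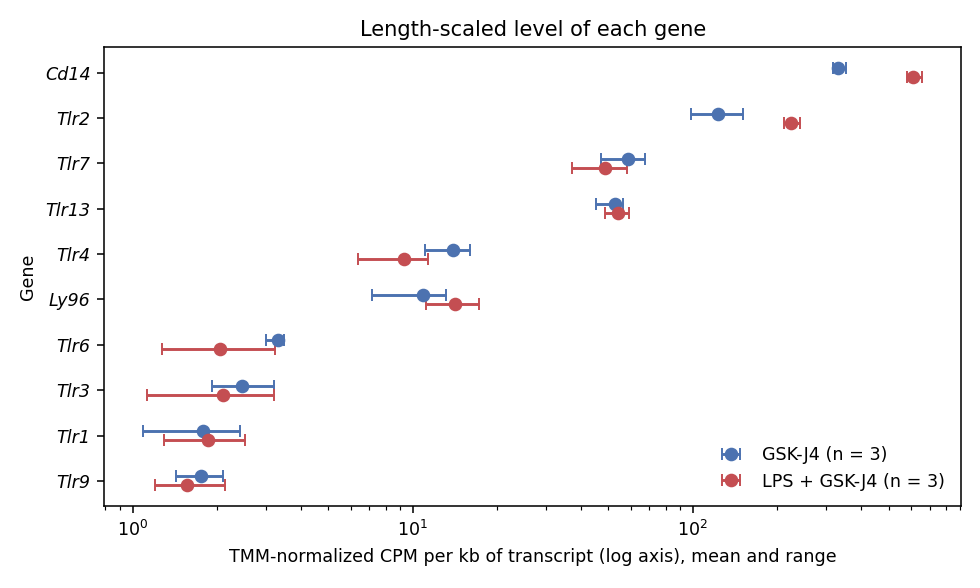
TMM-normalized CPM per kb of the longest transcript on a log axis, with the mean and the range over the 3 libraries of each group. Cd14, Tlr2, the pair Tlr7 and Tlr13, the pair Tlr4 and Ly96, and the 4 lowest genes form tiers whose ranges do not meet in either group.

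Ratios of counts within a library do not depend on how libraries are scaled, and 9 of them were computed after the values had been seen. There were 7.94, 8.77 and 12.8 Cd14 fragments for each Tlr4 fragment in GSK-J4, and 23.3, 20.7 and 41.5 in LPS + GSK-J4. The Tlr2 to Tlr4 ratio was 6.96, 5.96 and 6.59 in GSK-J4 and 17.5, 13.8 and 25.5 in LPS + GSK-J4. Both ratios were higher in every library with LPS, with means 2.90 and 2.91 times those in GSK-J4. The Cd14 to Tlr2 ratio, in contrast, was 1.14, 1.47 and 1.94 against 1.33, 1.5 and 1.63, and the groups overlapped.

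The Tlr7 to Tlr13 ratio fell from 1.04, 1.15 and 1.00 to 0.945, 0.885 and 0.737, with groups that did not overlap. A 2-sided exact permutation test gave p = 0.1 for the 3 of these 4 ratios whose groups were apart (0.15 after Benjamini-Hochberg adjustment over the 9), the smallest value that 3 libraries against 3 allow. None can therefore be called significant.

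**Figure D4:**
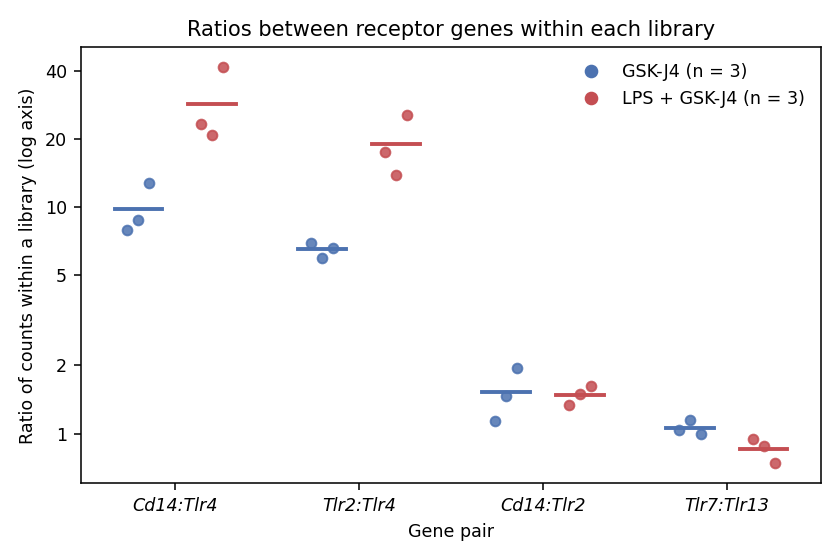
Ratio of the counts of 2 receptor genes within each library on a log axis, with 1 point per library and a bar at the mean of each group (n = 3). The ratios of Cd14 and of Tlr2 to Tlr4 are higher in all 3 LPS + GSK-J4 libraries (20.7 to 41.5 and 13.8 to 25.5) than in the GSK-J4 libraries (7.94 to 12.8 and 5.96 to 6.96).

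Markers of cell types moved between the groups as well. In these bulk samples, fewer cells of a type and less RNA per cell cannot be told apart. Of the 12 microglia markers, 2 (Cx3cr1 and Csf1r) were lower at the adjusted p and 0 higher, with a median log2 fold change of -0.40, and their summed level went from between 3723 and 3822 CPM in GSK-J4 to between 2906 and 3039 CPM in LPS + GSK-J4. At an unadjusted p below 0.05, 9 microglia markers were lower and 0 higher, where 15.5% and 19.3% of all genes tested by edgeR were. DESeq2 called 5 microglia markers lower at the adjusted p, for which no share of all genes was computed. The homeostatic markers P2ry12 and Tmem119 were detected at low counts, from 19 to 68 and from 4 to 31.

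Astrocyte markers rose, 3 of 7 tested (Gfap, Aqp4 and Gja1), and their sum went from between 53.9 and 59.4 to between 131 and 159 CPM. Oligodendrocyte lineage markers rose in 5 of 8 tested (sum 218 to 251 against 395 to 451 CPM). Of the 6 neuron markers only Tubb3, Map2 and Stmn2 were tested, and these 3 rose, while DESeq2 called 2 higher. The neuron sum was 19.6 to 23.8 against 46.7 to 52.7 CPM. Rbfox3, Snap25 and Syt1 had between 0 and 5 counts in a library, so their direction cannot be read. The sum of the fibroblast and mural markers lay between 80.1 and 281 CPM and between 138 and 427 CPM, with 0 of 6 past the adjusted p by edgeR and by DESeq2, and 1 higher at an unadjusted p below 0.05. Cdh5, 1 of 2 endothelial markers tested, rose, and Ms4a7, 1 of 3 markers of other macrophages tested, fell. Of the neutrophil, T and B cell markers only S100a8 was tested and did not pass, and S100a9, Ms4a1, Cldn5 and Rgs5 had 0 counts in every library. At edgeR's adjusted p, 8.42% of all genes tested were higher and 5.46% lower, and at an unadjusted p below 0.05, 19.3% and 15.5%. No such share was computed for DESeq2. The part of the marker shifts in the receptor values was not tested.

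Set against the summed counts of the 12 microglia markers in the same library, Cd14 was at 139, 140 and 151 fragments per 1000 marker fragments in GSK-J4 and at 332, 328 and 356 in LPS + GSK-J4. Tlr2 was at 122, 95.2 and 77.8 against 249, 218 and 219. On this scale both genes were higher in every library with LPS, with means 2.36 and 2.32 times those in GSK-J4. The summed markers were themselves lower with LPS (3723 to 3822 against 2906 to 3039 CPM), which raises every ratio to them, that of Tlr13 included. These ratios are therefore not separate support for a rise. Tlr4 was at 17.6, 16.0 and 11.8 against 14.2, 15.8 and 8.56 per 1000, and Tlr7 at 63.9, 69.8 and 47.8 against 78.3, 66.5 and 47.7, so that both overlapped. Tlr13 was at 61.6, 60.6 and 47.8 against 82.9, 75.1 and 64.7, and its groups did not overlap on this scale, with a mean 1.31 times that in GSK-J4. The exact permutation p was 0.1 (adjusted 0.15) for Cd14, Tlr2 and Tlr13, 0.5 (adjusted 0.643) for Tlr4 and 0.8 (adjusted 0.9) for Tlr7. As 0.1 is again the smallest value possible, this test could not have called any of these ratios significant. The mean of Tlr7 was lower with LPS in CPM and higher per marker fragment, with groups that overlapped on both scales. That of Tlr4 was lower on both scales, also with groups that overlapped.

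The remaining Toll-like receptor genes of the mouse were nearly silent apart from Tlr8. Tlr5, Tlr11 and Tlr12 had between 0 and 2 counts in every library, which is under the floor of 3 counts. Tlr8, another endosomal receptor related to TLR7, had 154, 188 and 98 counts in GSK-J4 and 85, 70 and 46 in LPS + GSK-J4. Its groups did not overlap (35.9 to 42.2 against 19.0 to 33.2 CPM), and the log2 fold change was -0.54 (standard error 0.19) with an adjusted p of 0.0568 by edgeR.

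Genes that fold, carry or cleave the receptors included the strongest fall in the pathway lists. Rab7b, a small GTPase known to send TLR4 to lysosomes, had 1214, 1505 and 845 counts in GSK-J4 and 223, 196 and 167 in LPS + GSK-J4. It fell from 311 ± 25.7 to 76.9 ± 9.22 CPM (SD, n = 3), with a log2 fold change of -2.02 (standard error 0.13) and an adjusted p of 1.09e-08 by edgeR. The fall was past both thresholds in all 14 alternatives run for it. Of the 15 genes of this list that were tested, 4 were lower at the adjusted p (Rab7b, Ap3b1, Ctsb and Lgmn), 1 was higher and 10 did not pass. Over all genes tested, 5.46% were lower and 8.42% higher at the adjusted p. Slc15a3, a transporter of the endosomal membrane, rose from 234 ± 6.16 to 326 ± 43.9 CPM (0.48 on the log2 scale, standard error 0.12, adjusted p = 0.00799 by edgeR). It no longer passed in 5 of the 6 comparisons that left out a single library, where the adjusted p reached 0.0461. The median log2 fold change of the list was -0.40.

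Among 9 tested genes of LPS binding and of accessory receptors, Il1rl1 and Cd180 rose at the adjusted p, 0 fell and 7 did not pass. At an unadjusted p below 0.05, 3 were higher and 1 lower, and DESeq2 called 1 higher and 0 lower. Il1rl1, the receptor for interleukin-33 and a known brake on TLR4 signalling, had 38, 45 and 24 counts in GSK-J4 and 75, 101 and 53 in LPS + GSK-J4. The groups did not overlap, with 9.29 ± 0.708 against 29.9 ± 8.35 CPM (SD, n = 3), and the log2 fold change was 1.68 (standard error 0.23, adjusted p = 5.96e-05 by edgeR). Without LPS + GSK-J4 replicate 2 it was 1.45, below the fold threshold, at an adjusted p of 0.00109. The lowest value of this list was that of Ly86, which encodes the MD-1 partner of CD180, at a log2 fold change of -0.48 (adjusted p = 0.0205 by edgeR). The median of the list was 0.20. Among all genes tested by edgeR, 8.42% were higher and 5.46% lower at the adjusted p, and 19.3% and 15.5% at an unadjusted p below 0.05. No such share was computed for DESeq2.

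The list of adaptors and kinases acting downstream of the receptors included genes called in each direction. Of 21 tested, Myd88 and Ticam1 were higher at the adjusted p, Ticam2, Irak2, Tab1 and Ripk1 were lower, and 15 did not pass, with a median log2 fold change of -0.13. Ticam2 encodes TRAM, the bridging adaptor that TLR4 uses from endosomes. It had 411, 372 and 181 counts in GSK-J4 and 69, 58 and 58 in LPS + GSK-J4, and it fell from 82.3 ± 15.3 to 24.3 ± 2.42 CPM (SD, n = 3). The change of -1.76 on the log2 scale (standard error 0.17, adjusted p = 1.65e-06 by edgeR) was past both thresholds in all 14 alternatives run for it. In GENCODE, Ticam2 (chromosome 18, 46557291 to 46574533) overlaps Tmed7 (46560235 to 46597535) on the same strand. Fragments in exons of both genes would not be counted, which no alternative addressed. Myd88, the adaptor shared by nearly all Toll-like receptors, rose from 21.5 ± 1.56 to 37.7 ± 3.15 CPM, by 0.80 on the log2 scale (standard error 0.17) at an adjusted p of 0.00239 by edgeR, with a range from 0.000125 to 0.0143 over its 14 alternatives. Over the pathway lists other than the LPS check, 46 genes were tested, of which 5 were higher and 8 lower at the adjusted p. Of these, 1 and 2 were past both thresholds. Over all genes tested, 8.42% were higher and 5.46% lower at the adjusted p, and 2.95% and 0.809% were past both thresholds.

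**Figure D5:**
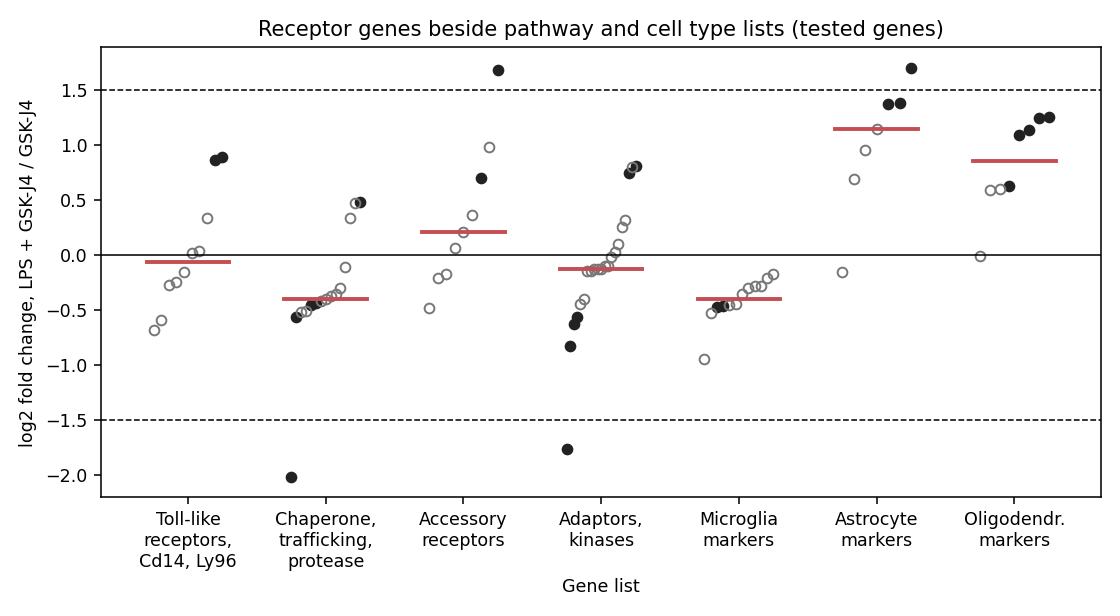
Log2 fold change of LPS + GSK-J4 against GSK-J4 for each tested gene of the receptor genes, 3 pathway lists and 3 cell type marker lists, with filled points at an adjusted p up to 0.01, a red bar at the list median and dashed lines at 1.5 in either direction. The lowest points are Rab7b (-2.02) and Ticam2 (-1.76), and the astrocyte and oligodendrocyte markers lie mostly above 0.

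The genes whose profiles over the 6 libraries lay nearest to that of Cd14 among all genes tested were Sqstm1, Aldoc and Slc44a1, by the Euclidean distance of log2 CPM centred on each gene's mean (0.0774, 0.152 and 0.157). Their log2 fold changes were 0.91, 0.95 and 0.85. Aldoc, which is also on the list of astrocyte markers, did not pass, at an adjusted p of 0.0657 by edgeR. For Tlr4 the nearest were Gcc2, BC003331 and Dis3l (distances of 0.151 to 0.174), with log2 fold changes of -0.57, -0.54 and -0.70, none of them past an adjusted p of 0.01. These are descriptions over 6 libraries.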

How the data were processed

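The authors trimmed reads with Trimmomatic 0.33, aligned them to mm10 with STAR 2.5.1 and deposited its raw counts of fragments per gene in each library, without normalization. The gene annotation used for counting is not given in the sources used here. STAR counts only fragments that map to 1 place and overlap 1 gene. The reverse-strand column was used, which fits the directional kit. Positions and transcript lengths are from GENCODE, promoter windows from RefSeq.

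Counts from 3 GSK-J4 and 3 LPS + GSK-J4 libraries, grouped by their labels, were tested with edgeR 4.0.16 under R 4.3.3, with limma 3.58.1, using TMM, filterByExpr (minimum count 10, minimum total 15) and the robust quasi-likelihood test without covariates. DESeq2 1.42.0 was an alternative. The authors used DESeq2 in a version not given in the sources used here. Adjustment of p followed Benjamini and Hochberg and, in edgeR, covered every gene tested. DESeq2 was run with its default independent filtering, which can leave genes of low mean count without an adjusted p. The fit was tested on simulated data. The 10 genes, the lists and the tests were chosen with earlier results of these data known. Of the pathway lists, genes past both thresholds and the highest and lowest of each list are described with values, and others that passed are named only. The 3 nearest profiles are given for Tlr4 and for the gene with the largest change. The others were DESeq2's size factors, unstranded counts, 2 other filters, removal of ribosomal features (Rn45s, Mir6236 and Lars2), other thresholds, a replicate block and leaving out libraries. Intervals of fold changes are from edgeR and include the spread between libraries, and the floor of 3 counts covers counting error only. Python 3.11.15 (pandas 2.3.3, numpy 2.4.6, matplotlib 3.10.9 and scipy 1.17.1) was used for tables and figures.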

Additional observations from a re-analysis of the deposited data

How the results depend on the processing

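The calls of Cd14 and Tlr2 at the adjusted p held under every alternative run for them. At the adjusted p alone, 2 genes counted as called higher in place of 0. Tlr4 passed as lower, making 1 gene, without the filter on low counts (log2 fold change -0.65), with a replicate block (-0.59) and without both libraries of replicate 3 (-0.51), an alternative added after the data were seen. Leaving out libraries gave between 0 and 1 genes lower. The deviations of same-numbered libraries correlated by -0.01, 0.12 and 0.30, so the numbers were not taken as pairs. The block moved the pathway genes lower at the adjusted p from 8 to 17, and the other calls of the 10 genes did not change with it. DESeq2 gave 3 pathway genes higher in place of 5. Leaving out libraries gave between 2 and 7 pathway genes higher and between 2 and 10 lower. The share of all genes called under each alternative was not computed. Whether these counts, and the calls of Tlr4, moved with that share was therefore not tested. The sign of Tlr1 reversed with DESeq2 (-0.0098) and without the filter (-0.0391), and that of Tlr13 likewise (-0.0144 and -0.0217). Leaving out libraries turned the signs of Tlr1 (-0.27 to 0.28), Tlr3 (-0.67 to 0.0416), Tlr9 (-0.43 to 0.0044) and Tlr13 (-0.0658 to 0.102). The cause was not tested. With DESeq2 and without the filter, 18016 genes with any count were fitted, and their median log2 fold change was 0.127 and 0.12. Tlr1, Tlr3, Tlr6, Tlr9 and Ly96 had at most 63 counts in a library, and the parts of counting error and of spread between libraries in their imprecision were not separated.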
